A study of Mus musculus with 4 samples.

Results

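The cytosolic ribosome of mouse cells holds a large and a small subunit, and its proteins are encoded by genes whose symbols begin with Rpl (large subunit) or Rps (small subunit). Members were taken by symbol from a table of 41345 array probe sets, as every probe set with exactly 1 gene symbol of this form, leaving out Rps6k kinases, Rps19bp1 and annotated pseudogenes. The rule found 109 probe sets of 68 genes, among 22180 genes with a probe set of their own, with 64 probe sets of 42 genes for the large subunit and 45 probe sets of 26 genes for the small subunit. No measured value entered the rule. A further 57 probe sets name a ribosomal protein gene beside other genes and were not members.

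The 4 samples were of Beta-TC-6, a mouse pancreatic beta cell line, each read on 1 Affymetrix Mouse Gene 2.1 ST array from total RNA. In 2 samples (siNTC) the cells received a negative control siRNA, and in 2 (siNF45) a mixture of RNAi duplexes against NF45, which is encoded by Ilf2 and works in a complex that binds double-stranded RNA. All 4 were transfected with the same lipid reagent and grown in the same high-glucose medium, and it is not stated in the labels if replicates were transfected separately. The p-values therefore rest on the spread of these 4 arrays alone, part of which may be technical. The comparison asks which transcripts depend on NF45. The target checked the labels: Ilf2 read 5.79 and 5.98 in siNTC against 3.67 and 3.77 in siNF45 (log2), a difference of -2.16 (SE 0.13, limma adjusted p = 0.0201). Without any 1 array Ilf2 stayed between -2.26 and -2.07 and its limma adjusted p lay between 0.309 and 0.475.

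Ribosomal proteins are made in near-equal amounts, assembled onto ribosomal RNA in the nucleolus and exported as subunits. Their mRNAs are abundant in almost every cell and mostly begin with a pyrimidine-rich stretch, the TOP sequence, through which mTOR signalling and the RNA-binding protein LARP1 set their translation. Many of these genes have processed pseudogene copies elsewhere in the genome. Beta cells depend on a high rate of protein synthesis to supply insulin.

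The start regions of the genes with the smallest p in either direction are printed. They show which of these genes have a pyrimidine run at or near the start, a feature that the symbol rule did not use. Of the 11 printed, Rps7, Rps28 and Rps23 have no such run, and Rplp1, Rpl29, Rpl17 and Rpl21, also among the smallest p, were not matched to a window. Windows from 20 bases before to 10 bases after the start are from RefSeq on GRCm38.p6, written 5′ to 3′ on the gene's strand. Capitals mark a run of at least 7 letters that are all C or T and that reaches within 10 bases of the start, cut where it leaves the printed window. The run need not contain the start, and that of Rps27l ends before it. Rps24 and Rps27l each have a second annotated start without such a run, which is not printed.

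Rpl28 (chr7:4792945-4792974, plus strand): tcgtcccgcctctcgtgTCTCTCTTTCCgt

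Rpl22l1 (chr3:28805488-28805517, plus strand): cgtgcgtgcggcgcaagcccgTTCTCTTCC

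Rpl14 (chr9:120571497-120571526, plus strand): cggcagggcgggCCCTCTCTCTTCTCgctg

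Rps18 (chr17:33955656-33955685, minus strand): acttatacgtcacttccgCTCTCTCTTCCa

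Rps7 (chr12:28635944-28635973, minus strand): gaagagcttccggtttccacccacctactt

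Rps28 (chr17:33824553-33824582, minus strand): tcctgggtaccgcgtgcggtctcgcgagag

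Rps27l (chr9:66946066-66946095, plus strand): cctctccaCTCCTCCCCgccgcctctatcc

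Rps9 (chr7:3704021-3704050, plus strand): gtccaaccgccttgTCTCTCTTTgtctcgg

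Rps27 (chr3:90213639-90213668, minus strand): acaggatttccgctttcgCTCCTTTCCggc

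Rps24 (chr14:24490658-24490687, plus strand): acgcccccgcgctggggTCCTTCCTTgcgc

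Rps23 (chr13:90923102-90923131, plus strand): acggggccttcggctgggcggggcttcccg

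RefSeq windows were matched for 53 of the 68 genes, and those not matched were Rpl3, Rpl6l, Rpl7, Rpl8, Rpl17, Rpl21, Rpl23a, Rpl29, Rpl30, Rpl32, Rplp1, Rps4l, Rps14, Rps20 and Rps29. A run of C or T within 10 bases of the start was found in 29 of the 53 genes (54.7%), against 22.5% of 27025 genes with a window. On the opposite strand it was found in 4 of 53 genes (7.55%), against 24.6% of all genes. The letters CCGGAAG, the core that ETS family factors such as GABP bind, were sought on either strand of the 300 bases around the start. They occurred in 23 of 53 genes (43.4%), against 9.93% of all genes and 12.9% of 17492 protein-coding genes. Matches are a description of the letters. Tested probe sets of genes with a run had a median difference (siNF45 minus siNTC) of 0.00 over 44 probe sets, those of genes without one 0.01 over 26, and those of genes without a window -0.07 over 20.

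No ribosomal protein probe set passed the test of siNF45 against siNTC. A probe set was tested when its mean over the 4 arrays reached the median of all probe sets, 1.645 on the log2 scale, which 90 of the 109 members did, covering 57 of the 68 genes. Over all 12208 tested probe sets 9 passed at a limma adjusted p under 0.05 (0.0737%), and of the 90 members 0 passed, with 2 higher and 2 lower at an unadjusted p under 0.05. In the table as a whole 3.98% were higher and 12.9% lower at that unadjusted level, against 2.22% of the members in each direction. The counts of lower and higher members changed when either siNF45 array or siNTC replicate 1 was left out. Those of the table changed too. In bulk RNA fewer cells of a type and less RNA per cell cannot be told apart.

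Differences of members were smaller than those of the table, with a median size of 0.11 against 0.16 on the values as deposited. The median difference was -0.01 over the 52 large subunit probe sets (range -0.44 to 0.42) and -0.01 over the 38 small subunit probe sets (range -0.70 to 0.40), beside -0.06 over all tested probe sets. With identical probe sets counted once, the small subunit median was -0.04 over 32. Of the 90 members 47 lay below 0 and 42 above, whereas 61.1% of all tested probe sets lay below. Both siNF45 arrays read below both siNTC arrays for 18 members (20% against 32.1% of all), and above them for 15 (16.7% against 15.3%). These members share arrays and some share probes, so the medians and shares are descriptions without a test. Centring the arrays on the tested median moved both subunit medians to 0.13 and that of all tested probe sets to 0.07, and 28 of the 90 members, none over 0.14 in size as deposited, changed sign. At an unadjusted p under 0.05 the table held 486 higher and 1571 lower probe sets as deposited, 1358 and 833 after centring, and 781 and 1305 after quantile normalization. After quantile normalization the medians were 0.03 for the large subunit, 0.01 for the small and -0.02 for the table. At the unadjusted level members numbered 8 higher and 1 lower after centring.

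**Figure D1:**
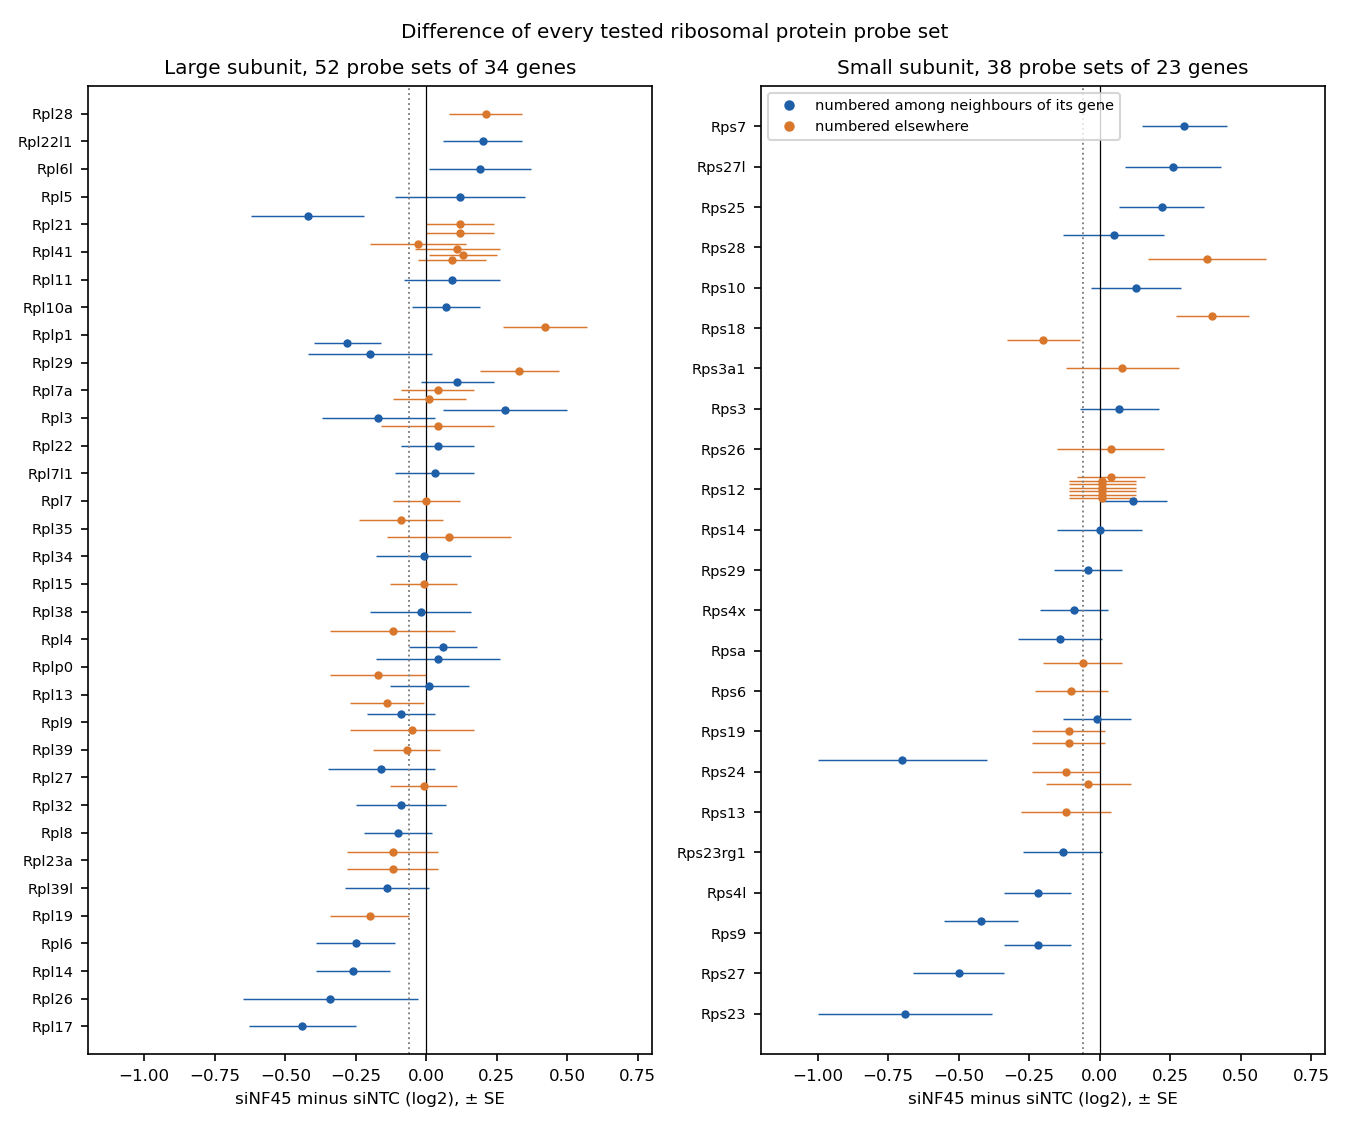
Difference of each tested ribosomal protein probe set, as siNF45 minus siNTC (log2) with its moderated SE, by gene and subunit. Blue points are probe sets numbered among the neighbours of their gene, orange points those numbered elsewhere, and the dotted line is the median of all tested probe sets (-0.06). The lowest points are Rps24 and Rps23 at -0.70 and -0.69.

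Bright members differed less than dim ones. The 48 members with a mean of 5 or more differed by a median size of 0.09, and the 42 dimmer members by 0.15. For all tested probe sets the same sizes were 0.14 and 0.17. None of the 48 bright members reached an unadjusted p under 0.05 in either direction, while 11.1% of all bright probe sets were lower and 4.34% higher. The spread between the siNTC replicates of bright members had a median of 0.14, larger than the 0.12 of all bright probe sets, and between the siNF45 replicates it was 0.08 against 0.10. The highest member, Rpl21, had a mean of 10.19, and the highest value of the table was 12.21. Whether values near the top of the scale understate differences was not tested.

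**Figure D2:**
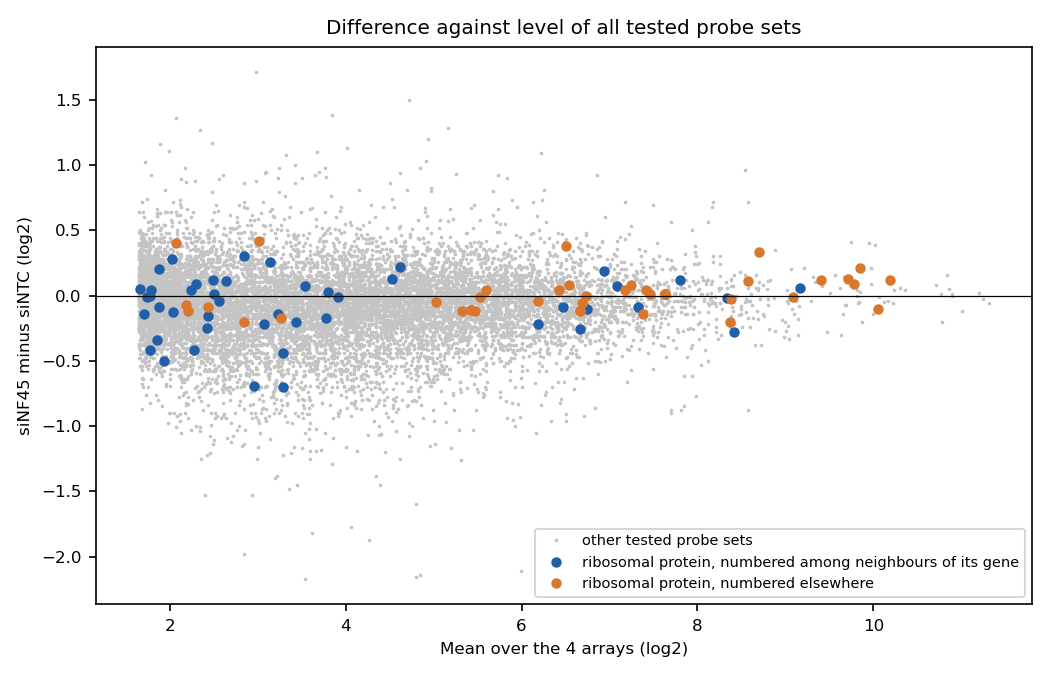
Difference (siNF45 minus siNTC, log2) against the mean over the 4 arrays (log2) for all 12208 tested probe sets, with ribosomal protein probe sets in colour. The 48 members with a mean of 5 or more lie between -0.28 and 0.38, and the members below -0.4 have means under 4.

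The probe sets of these genes are not all numbered among the neighbours of the gene. Their positions were not available, so a number elsewhere does not say where a probe set lies. Probe set numbers on this array follow genome order for most genes: 96.9% of 23328 probe sets with a RefSeq gene were numbered among probe sets whose genes lie within 5 Mb of their own gene (at least 6 of the 10 nearest with another symbol). Of the 109 members 65 met this and 44 (40.4%) did not, against 3.06% of all. None of the 19 members below the filter was numbered elsewhere. These 19 include the only probe set or sets of 11 genes, namely Rpl10l, Rpl27a, Rpl30, Rpl32l, Rpl37, Rpl37a, Rpl3l, Rplp2, Rps15, Rps16 and Rps20. A low reading was not taken as absence of the mRNA.

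The 2 kinds of probe set differed in how many lay low in siNF45. Among tested members numbered at their gene, 14 of 46 read below both siNTC arrays (30.4%) and 6 above (13%). Among those numbered elsewhere, 4 of 44 read below (9.09%) and 9 above (20.5%). The table as a whole had 32.1% below and 15.3% above. Their median differences were -0.03 and 0.01. The kinds differed in brightness too: 11 of the 46 at their gene had a mean of 5 or more, and 37 of the 44 elsewhere. Among these bright members 5 of 11 at their gene and 2 of 37 elsewhere read below both siNTC arrays, and among the dim ones 9 of 35 and 2 of 7. The 44 cover 28 genes and include 6 Rps12 probe sets with identical values, so they are not independent, and the difference between the kinds was not tested. Signal from pseudogene copies was not separated from that of the gene.

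Among large subunit proteins, the stalk gave opposite readings for 1 gene. The stalk recruits elongation factors to the ribosome and is built from Rplp0, Rplp1 and Rplp2. The Rplp1 probe set numbered at its gene read 8.54 and 8.56 in siNTC and 8.30 and 8.25 in siNF45, a difference of -0.28 (SE 0.12, limma adjusted p = 0.316). The other Rplp1 probe set read 2.65 and 2.97 in siNTC and 3.21 and 3.24 in siNF45, a difference of 0.42 (SE 0.15, limma adjusted p = 0.256). Neither pair of groups overlapped, in opposite directions, and the difference of 0.42 was 0.26 without siNTC replicate 1. Rplp0 differed by -0.17 (SE 0.17) and 0.04 (SE 0.22), with overlapping groups at both probe sets, and the Rplp2 probe set was below the filter at 1.07, 1.47, 1.88 and 1.34.

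Rpl5 and Rpl11, which form a particle with 5S ribosomal RNA and bind Mdm2 when ribosome assembly fails, showed overlapping groups. Rpl5 read 2.11 and 2.76 in siNTC and 2.48 and 2.62 in siNF45, with a 95% interval of the difference from -0.45 to 0.68. Rpl11 read 2.12 and 2.39 against 2.50 and 2.18, with an interval from -0.33 to 0.50. Rpl23, another Mdm2-binding protein, was named only by probe sets that list further loci, and these differed by -0.19 (SE 0.14) and -0.10 (SE 0.17) in the fit of every probe set.

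The other large subunit genes with the smallest p were as follows. Rpl29, a protein of the subunit surface, read 8.66 and 8.41 in siNTC and 8.87 and 8.86 in siNF45 at its brighter probe set, a difference of 0.33 (SE 0.14, limma adjusted p = 0.309). At the Rpl29 probe set numbered at its gene the difference was -0.20 (SE 0.22), with overlapping groups. Rpl28 read 9.82 and 9.67 against 9.99 and 9.92, a difference of 0.21 (SE 0.13). These bright Rpl29 and Rpl28 probe sets are numbered elsewhere. Both were higher on each siNF45 array than on either siNTC array, as was Rpl22l1, a paralogue of Rpl22, at 1.87 and 1.69 against 1.88 and 2.08. Leaving out siNTC replicate 2 brought the difference of Rpl29 from 0.33 to 0.20, of Rpl28 from 0.21 to 0.14 and of Rpl22l1 from 0.20 to 0.11, and without siNF45 replicate 2 Rpl22l1 was at 0.10.

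On the low side, Rpl17, a protein lining the exit tunnel, read 3.57 and 3.45 in siNTC and 3.31 and 2.82 in siNF45, a difference of -0.44 (SE 0.19, limma adjusted p = 0.315). It was -0.20 without siNF45 replicate 2 and -0.69 without siNF45 replicate 1. The dimmest Rpl21 probe set read 2.23 and 2.76 against 2.13 and 2.01, a difference of -0.42 (SE 0.20) that was -0.16 without siNTC replicate 2 and -0.69 without siNTC replicate 1. Rpl14 read 6.69 and 6.88 against 6.51 and 6.54, a difference of -0.26 (SE 0.13) that was -0.16 without siNTC replicate 2 and -0.12 after centring. In all 3 the groups did not overlap, which picking the smallest p favours.

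Rpl4, Rpl26 and Rpl19 are some of the other proteins around the tunnel. The groups overlapped at the tested probe sets of Rpl4 and Rpl26 and not at that of Rpl19. Rpl4, whose loop reaches into the tunnel, read at its brighter probe set 9.07 and 9.21 in siNTC and 9.23 and 9.17 in siNF45, with a 95% interval of the difference from -0.25 to 0.37. Rpl26 read 2.24 and 1.81 against 2.13 and 1.25, a wide spread within siNF45. Rpl19 was lower on both siNF45 arrays at its bright probe set, at 8.23 and 8.31 against 8.61 and 8.34, a difference of -0.20 (SE 0.14). Such a reading was seen for 32.1% of all tested probe sets, and this one is numbered elsewhere. The Rpl19 probe set numbered at its gene was below the filter and separated the other way, at 1.64 and 1.59 in siNF45 against 1.46 and 1.57 in siNTC. Rpl3, which lies by the peptidyl transferase centre, differed by 0.04, -0.17 and 0.28 at its 3 probe sets, and siNF45 replicate 2 read below replicate 1 at each of them. Rpl7 at its tested probe set read 6.74 and 6.72 in both groups.

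The 3 members with the smallest p, Rps9, Rps18 and Rps27, belong to the small subunit. The dimmer Rps9 probe set, for a protein at the mRNA entry site, read 2.08 and 1.90 in siNTC and 1.53 and 1.60 in siNF45, a difference of -0.42 (SE 0.13, limma adjusted p = 0.211). Its brighter probe set read 6.25 and 6.35 against 6.06 and 6.11, a difference of -0.22 (SE 0.12). Both Rps9 probe sets were lower on each siNF45 array than on either siNTC array.

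Rps27, a zinc-binding protein of the small subunit, read 2.11 and 2.26 in siNTC and 1.87 and 1.51 in siNF45, a difference of -0.50 (SE 0.16, limma adjusted p = 0.232) that was -0.32 without siNF45 replicate 2. Its paralogue Rps27l, known as a p53 target, read 3.22 and 2.81 against 3.28 and 3.26, a difference of 0.26 (SE 0.17, limma adjusted p = 0.494) that was 0.05 without siNTC replicate 2 and 0.46 without siNTC replicate 1. A brighter probe set naming both Rps27 and Rps27rt read 7.68 and 7.54 in siNTC and 7.52 and 7.62 in siNF45. It differed by -0.04 (SE 0.14) in the fit of every probe set, with overlapping groups. Rps27l minus the dimmer Rps27 probe set was 1.11 and 0.55 in siNTC and 1.41 and 1.75 in siNF45. That was a shift of 0.75 between groups that did not overlap. A two-sided exact permutation test gave p = 0.333, and with 2 arrays in each group it cannot go lower.

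The largest differences of any member were in Rps24 and Rps23, and 1 array carried most of them. Rps24, a gene mutated in some families with Diamond-Blackfan anaemia, read 3.71 and 3.57 in siNTC and 3.40 and 2.48 in siNF45 at the probe set numbered at its gene, a difference of -0.70 (SE 0.30, limma adjusted p = 0.316). Rps23, a protein of the decoding centre, read 3.03 and 3.57 against 3.02 and 2.20, a difference of -0.69 (SE 0.31, limma adjusted p = 0.341). Without siNF45 replicate 2 these were -0.24 and -0.28, and without siNF45 replicate 1 they were -1.16 and -1.10, and Rps23 was at -0.42 without siNTC replicate 2. The brighter Rps24 probe sets, numbered elsewhere, differed by -0.04 and -0.12.

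That array was the lowest of the 4 at many dim members. SiNF45 replicate 2 gave the lowest value for 20 of the 42 members with a mean under 5 (47.6%), against 40.2% of all such probe sets, and for 9 of the 48 brighter members (18.8%) against 33.5%. Among the other dim members with the smallest p, leaving it out moved Rpl17 from -0.44 to -0.20, Rps27 from -0.50 to -0.32 and Rps7 from 0.30 to 0.19, and left Rps9 at -0.46 and Rps18 at 0.43.

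In the other direction, an Rps18 probe set read 1.79 and 1.95 in siNTC and 2.30 and 2.24 in siNF45, a difference of 0.40 (SE 0.13, limma adjusted p = 0.221), while another Rps18 probe set read 2.86 and 3.01 against 2.77 and 2.70, a difference of -0.20 (SE 0.13). Both are numbered elsewhere, and the Rps18 probe set numbered at its gene was below the filter at 1.67, 1.25, 1.22 and 1.18. Rps18 sits in the head of the small subunit. Rps28, at the mRNA exit site, read 6.61 and 6.02 against 6.75 and 6.64 at a probe set numbered elsewhere. Its difference of 0.38 (SE 0.21) was 0.09 without siNTC replicate 2 and 0.68 without siNTC replicate 1. The Rps28 probe set numbered at its gene differed by 0.05 (SE 0.18), with overlapping groups. Rps7 read 2.58 and 2.82 against 2.89 and 3.10, a difference of 0.30 (SE 0.15) that was 0.17 without siNTC replicate 1 and 0.19 without siNF45 replicate 2. All 3 higher readings came from groups that did not overlap.

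**Figure D3:**
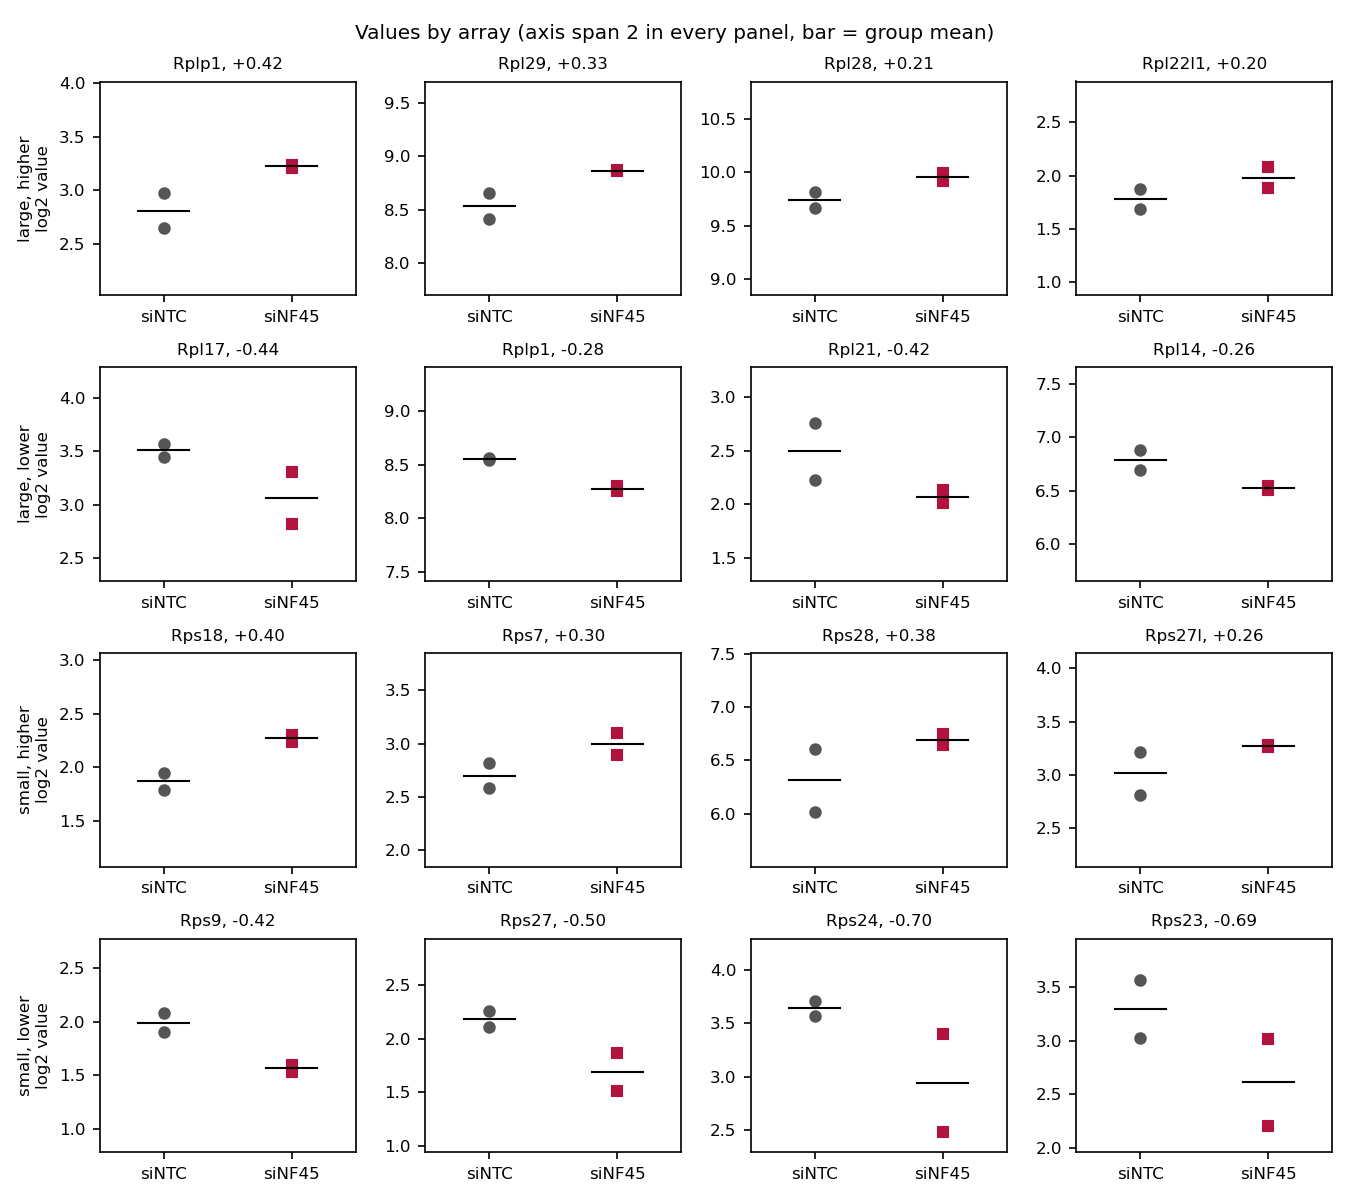
Log2 values by array for the 16 probe sets with the smallest p in each subunit and direction, with bars at the group means and the difference above each panel. Every panel spans 2 log2 units. The groups do not overlap in any panel, which picking the smallest p favours. Over all tested probe sets both siNF45 arrays lay below both siNTC arrays for 32.1% and above for 15.3%. The siNF45 arrays lie far apart for Rps24 (3.40 and 2.48) and Rps23 (3.02 and 2.20).

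Rps6, the protein phosphorylated by S6 kinase downstream of mTOR, read 10.02 and 10.19 in siNTC and 9.98 and 10.02 in siNF45, with a 95% interval of the difference from -0.42 to 0.21. Rps3, at the mRNA entry, read 6.92 and 7.16 against 7.12 and 7.10. Rps19, the gene most often mutated in Diamond-Blackfan anaemia, differed by -0.11 at a pair of probe sets with identical values and by -0.01 at another. Rpsa, known also as the laminin receptor, differed by -0.06 and -0.14, and its groups overlapped at both probe sets. Rps25 was higher on both siNF45 arrays, at 4.77 and 4.68 against 4.35 and 4.67, a difference of 0.22 (SE 0.15).

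Among the other paralogues and gene copies, groups were separate for Rps4l and overlapped or were below the filter elsewhere. Rpl6l, named as a copy of Rpl6, read 7.09 and 6.61 in siNTC and 7.07 and 7.01 in siNF45. Rpl6 read 2.69 and 2.40 against 2.31 and 2.28, lower on both siNF45 arrays, and Rpl6l minus Rpl6 shifted by 0.44 (exact permutation p = 0.333). Rps4l was lower on both siNF45 arrays, at 2.98 and 2.93 against 3.20 and 3.16 (SE of the difference 0.12), as was Rps4x at 7.29 and 7.27 against 7.31 and 7.42. Groups overlapped for Rpl7l1, Rpl39l and Rps23rg1, and Rpl3l, Rpl10l and Rpl32l were below the filter. The 7 paralogue comparisons had exact permutation p from 0.333 to 1, chosen after values were seen, and none can reach 0.05 in this design.

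Probe sets of 1 gene were compared directly, as the difference between the brightest and each other probe set on every array, fitted over all genes with several tested probe sets. The table gave 428 such pairs, of which 0 passed at a limma adjusted p under 0.05 (0%) and 34 had an unadjusted p under 0.05 (7.94%). Members gave 31 pairs of 19 genes, 26 of them distinct, of which 0 passed and 3 had an unadjusted p under 0.05 (9.68%). That count fell without siNF45 replicate 2, as did the count over all pairs. The 3 were Rps18, whose brighter probe set moved by -0.60 relative to the other (SE 0.15, limma adjusted p = 0.404), Rplp1 by -0.69 (SE 0.18, limma adjusted p = 0.404) and Rpl29 by 0.53 (SE 0.21, limma adjusted p = 0.562). In each the brighter minus the other probe set did not overlap between the groups. The 2 probe sets of a gene had differences of opposite sign in 10 of 31 member pairs (32.3%) and in 45.6% of all pairs.

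For genes with several bright probe sets, the differences of those probe sets lay within 0.2 of each other. The 4 tested Rpl41 probe sets, for the smallest ribosomal protein, had means of 9.78, 9.71, 8.57 and 8.38 and differences of 0.09, 0.13, 0.11 and -0.03. Rpl21 differed by 0.12 at both of its bright probe sets and by -0.42 at the dim one. Rpl7a differed by 0.01, 0.04 and 0.11. Among 8 Rps12 probe sets, 6 held identical values, as did a pair for Rps19 and a pair for Rpl23a. Counting identical probe sets once left 83 members with a median difference of -0.01.

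**Figure D4:**
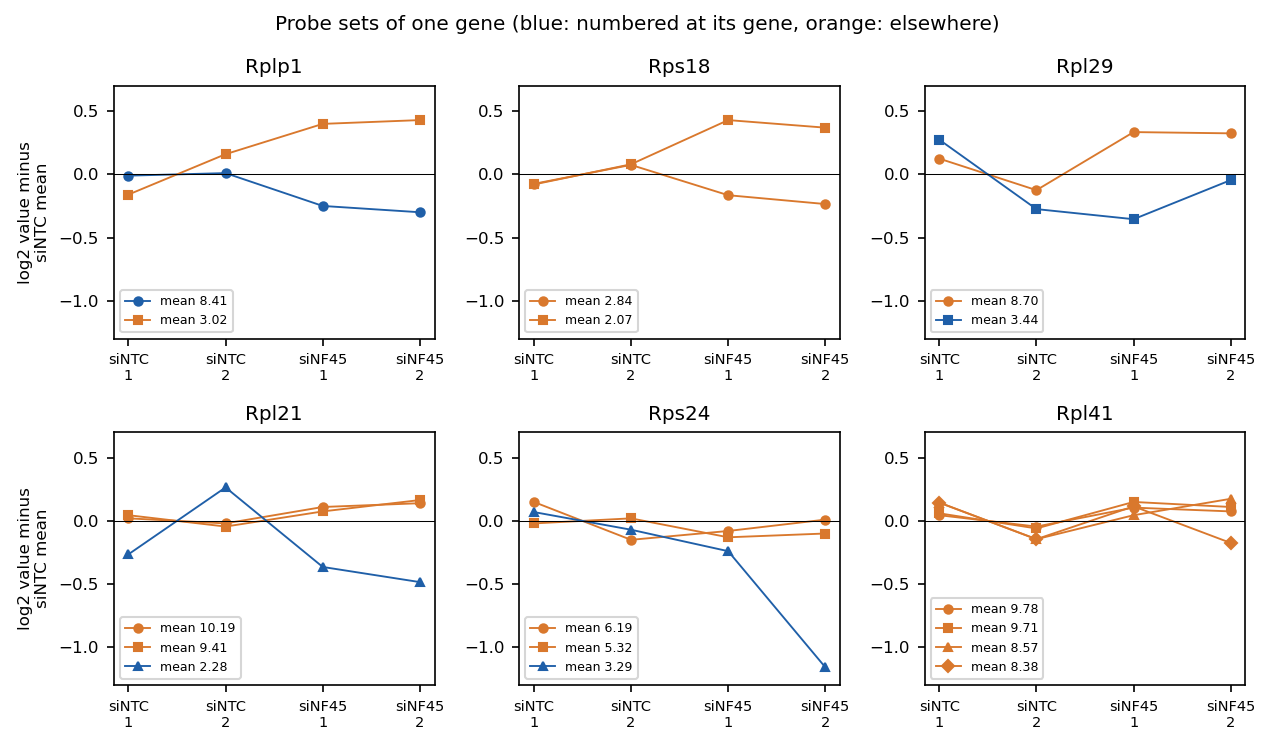
Log2 values by array, minus the siNTC mean of each probe set, for the tested probe sets of 6 genes. Blue lines are probe sets numbered at their gene and orange lines those numbered elsewhere, with the mean over the 4 arrays in the key. Probe sets of Rplp1, Rps18 and Rpl29 part in siNF45, and those of Rpl41 stay within 0.2 of 0.

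Genes that work with ribosomal proteins were read from lists and none of their probe sets passed, beside 0.0737% of the table. At an unadjusted p under 0.05 in limma, Fau gave 1 higher probe set, the TOP mRNAs 1 higher, the escort proteins 1 lower and the p53 checkpoint 1 higher and 1 lower, against 3.98% higher and 12.9% lower in the table. Fau, whose product is cleaved to ribosomal protein S30, read 1.48 and 1.60 in siNTC and 1.95 and 2.18 in siNF45 at 1 probe set, a difference of 0.52 (SE 0.14, limma adjusted p = 0.169), and differed by 0.07 (SE 0.13) at the other. Translation factors and other TOP mRNAs had 15 of 24 probe sets below 0 and a median of -0.06. Tpt1, which encodes a TOP-regulated growth protein, read 5.36 and 5.69 against 6.33 and 6.18 at 1 probe set, a difference of 0.73 (SE 0.16, limma adjusted p = 0.138), and differed by 0.03 (SE 0.12) at another. After centring the arrays the first Tpt1 probe set passed, at 0.87 (limma adjusted p = 0.0425), where the table gave 177 calls against 9 as deposited. It did not pass after quantile normalization (limma adjusted p = 0.102), with a block for the replicate number (limma adjusted p = 0.273) or with every probe set whatever its annotation (limma adjusted p = 0.357). The elongation factor Eef2 read 9.82 and 9.74 against 9.56 and 9.40, a difference of -0.30 (SE 0.13), and the initiation factor subunit Eif3f differed by -0.25 (SE 0.12).

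The genes of mTOR and LARP1 control had 8 of 17 probe sets below 0 and a median of 0.01. The mTOR inhibitor Deptor differed by 0.31 (SE 0.15) at 1 probe set and 0.14 (SE 0.12) at the other, Larp1 by -0.24 (SE 0.13) and Tsc2, an upstream brake of mTOR, by -0.22 (SE 0.13). Without siNF45 replicate 1 the first Deptor probe set was at 0.18 and Larp1 at -0.15, and without siNTC replicate 1 Deptor was at 0.20 and Tsc2 at -0.14. In limma 0 were higher and 0 lower at an unadjusted p under 0.05, and Larp1 read 7.06 and 6.98 in siNTC against 6.68 and 6.87 in siNF45.

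Escort proteins, which bind single ribosomal proteins on the way to the nucleolus, had a median of -0.06 over 14 probe sets, 7 of them below 0. Heatr3, which carries Rpl5 and Rpl11 into the nucleus, read 4.29 and 4.25 in siNTC and 3.52 and 3.72 in siNF45, a difference of -0.65 (SE 0.13, limma adjusted p = 0.132). Bccip, an escort of Rpl23, differed by 0.34 (SE 0.15) and the importin Kpnb1 by -0.27 (SE 0.13) at 1 of its 3 probe sets, with -0.13 and 0.14 at the others. Without siNF45 replicate 1 Bccip was at 0.17 and Kpnb1 at -0.18. Of the genes of the checkpoint between free ribosomal proteins and p53, 6 of 8 lay above 0 with a median of 0.24. Mdm2 read 5.73 and 5.81 against 6.49 and 6.50, a difference of 0.72 (SE 0.12, limma adjusted p = 0.0947). It passed after centring (0.86, limma adjusted p = 0.0334) and with a trend in eBayes (limma adjusted p = 0.0201). In those runs the table gave 177 and 172 calls, against 9 as deposited. Mdm2 did not pass after quantile normalization (limma adjusted p = 0.0656), with a block for the replicate number (limma adjusted p = 0.273) or with every probe set whatever its annotation (limma adjusted p = 0.34). Zmat3 differed by -0.35 (SE 0.12) and Sesn1 by 0.35 (SE 0.17), which was 0.16 without siNTC replicate 2 and 0.54 without siNTC replicate 1.

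Mitochondrial ribosomal proteins, encoded by separate Mrpl and Mrps genes and built into another ribosome, had 38 of 73 probe sets below 0 and a median of 0. In limma 4 were higher and 2 lower at an unadjusted p under 0.05, where the table had 3.98% higher and 12.9% lower. Mrpl20 read 2.52 and 2.34 in siNTC and 1.97 and 1.90 in siNF45, a difference of -0.50 (SE 0.13, limma adjusted p = 0.166), Mrpl37 differed by -0.39 (SE 0.13) and Mrps7 by 0.34 (SE 0.12). No difference between mitochondrial and cytosolic members was tested.

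The arrays and the cell type were checked on the same table. Medians over the tested probe sets were 3.79 and 3.72 in siNTC and 3.68 and 3.55 in siNF45. All 10 beta cell markers with a probe set of their own reached the filter, as did 5 of 6 markers of other islet cells. Of 6 exocrine and duct markers 1 did, and of 8 endothelial, immune and mesenchymal markers 2 did. None of these passed the test. Beta cell markers had a median difference of -0.03, from Chgb at -0.77 (SE 0.14) to Ins2 at 0.17 (SE 0.15). The sum of their log2 values, which is not a total amount of RNA, was 74.91 to 75.61 in siNTC and 74.05 to 74.15 in siNF45. Markers of other islet cells had a median of -0.39, from Sst at -0.88 (SE 0.16) to Ppy at 0.52 (SE 0.22). The sum of log2 values over all 6 on the table was 24.96 to 25.17 in siNTC and 23.27 to 24.30 in siNF45. The duct marker Krt7 differed by 0.66 (SE 0.14), and Col1a2 and Cd68 by -0.19 and -0.16. In limma 5 of the 18 markers were lower and 1 higher at an unadjusted p under 0.05, where the table had 12.9% lower and 3.98% higher. The lower ones were 2 of the 10 beta cell markers and 3 of the 5 tested markers of other islet cells. These 3 were Sst and the dim Irx1 and Irx2. The part of the markers in the values of the ribosomal protein genes was not tested.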

How the data were processed

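RNA of 4 Beta-TC-6 samples (2 siNTC, 2 siNF45) was read on 1 array each. The authors deposited 1 log2 value per probe set and array, made with Transcriptome Analysis Console per the submitters' processing notes. The sources used here give no version, algorithm, background correction or log base. Values from 0.12 to 12.21 were taken as log2. No detection call was used, and the number of arrays limits the precision. Probe sets were named from the platform annotation (23521 with 1 symbol).

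The fit used lmFit and eBayes of limma 3.58.1 (R 4.3.3) without covariates, on the deposited values of 12208 probe sets with 1 symbol and a mean of at least 1.645, every probe set kept, with Benjamini-Hochberg adjustment over all of them called at 0.05. Every difference is siNF45 minus siNTC, with its moderated SE. The fits were tested on simulated data. Named were, per subunit and direction, the 4 probe sets with the smallest p, some of the genes with several probe sets, paralogues, the stalk, Mdm2-binding proteins, Rps6 and 3 genes per list. Genes named for their place in the subunits were chosen after values were seen. The members and lists were chosen with earlier results of these data known.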

Additional observations from a re-analysis of the deposited data

How the results depend on the processing

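The count of members that passed was 0 in every alternative run with all 4 arrays, including an adjusted threshold of 0.10, although the table gave between 0 and 178 calls. With the replicate block and with every probe set whatever its annotation the table gave 0 calls. Ilf2 did not pass there either (limma adjusted p = 0.273 and 0.34), so these 2 runs cannot show that the count of 0 is stable. Members lower at an unadjusted p under 0.05 numbered 2 as deposited and 5 with a trend in eBayes. They numbered 1 at the 70th percentile filter, after centring, with each gene's brightest probe set and with every probe set whatever its annotation. The table held 1571 lower of 12208 as deposited, 1267 of 8181 at the 70th percentile filter and 833 of 12208 after centring. It held 1550 of 11742 with the brightest probe set, 1570 of 20677 with every probe set and 1651 of 12208 with the trend. Members higher numbered 2 as deposited, 4 without a filter, 8 after centring and 1 with every probe set. They numbered 0 with the brightest probe set or the mean of the probe sets of each gene. The table held 486 higher of 12208 as deposited, 985 of 23521 without a filter and 1358 of 12208 after centring. It held 811 of 20677 with every probe set, and 472 and 469 of 11742 with the brightest and the mean. Without 1 array, lower members ranged from 0 to 6, higher members from 0 to 4, and member pairs that differed at that level from 1 to 2. Those fits borrow the spread of the complete group for the group left with 1 array. The median of the small subunit was 0.13 after centring. The brighter Fau probe set, at 0.07 as deposited, was at exactly 0 without siNTC replicate 2. The alternatives with identical probe sets counted once and with every probe set were chosen after seeing the data. With the replicate block, 0 members passed, 3 were lower and 2 higher at an unadjusted p under 0.05, and 2 pairs differed. The table then held 1474 lower and 445 higher of 12208, and 36 of 428 pairs differed. The shared replicate numbers were not taken to pair the samples: deviations of same-numbered arrays correlated at -0.000636 over tested probe sets.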

Other observations

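Probe sets that name a ribosomal protein gene beside other genes, such as a pseudogene or a small nucleolar RNA of its introns, were not members. Those naming Rpl23 and a bright one naming Rps27 are given above. Of all such probe sets, 51 reached the signal filter. Fitted with every probe set of the table whatever its annotation, 0 of the 51 passed, with 0 higher and 1 lower at an unadjusted p under 0.05 in limma. Over all 20677 probe sets of that fit 0 passed, with 3.92% higher and 7.59% lower. The median difference of the 51 was -0.04, as over all of them, with a range from -0.71 to 0.38. The lower one names both Zbtb11 and Rpl24 and read 5.20 and 5.17 in siNTC and 4.65 and 4.80 in siNF45, a difference of -0.46 (SE 0.13, limma adjusted p = 0.379). It was named after its value was seen.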
